A study of Mus musculus with 9 samples.

Results

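The genes described here are the axon guidance ligands and receptors of mouse: semaphorins (Sema), their receptors the plexins (Plxn) and neuropilins (Nrp), ephrins (Efn), Eph receptors, Slits and their Robo receptors, and netrins (Ntn). Every array probe whose RefSeq identifier belongs to a gene symbol of these families was taken, which gave 95 probes of 41174 on the array and 62 genes of the 18327 with a matched probe. Of the 62 genes, 58 were bright enough to test, and Epha1, Sema3d, Robo4 and Ntn5 were not. The rule uses gene symbols alone.

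Guidance ligands steer growing axons by attracting or repelling the growth cone, and many of them are also made in mature neurons, where they act at dendrites and synapses. Semaphorins signal through plexins, and the secreted class 3 semaphorins bind neuropilins as co-receptors. Ephrins sit in the membrane and bind Eph receptor tyrosine kinases on the cell they touch, Slits are secreted ligands of Robo receptors, and netrins bind DCC and UNC5 receptors.

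Expression was measured in cortical neurons isolated from C57BL/6 mouse embryos on embryonic day 15 and kept in vitro for 12 days. Control cultures received no treatment, and the others received for 6 h either 25 µM bicuculline, a blocker of GABA-A receptors that raises network firing, or 50 mM KCl, which depolarises all excitable cells directly. Each group had 3 1-colour Agilent arrays. The labels do not say whether replicates came from separate cultures, so p-values reflect differences among arrays of a group that could be technical. Below, a signal is given as a percentage of the 75th percentile of the signals on the same array. Signals of different probes were not compared, since probes differ in how well they bind. Values of a gene come from its brightest probe, and those of its other probes from a fit of every kept probe. Changes are log2 differences with limma's standard error, n = 3 arrays a group, and a gene was called at a Benjamini-Hochberg adjusted p under 0.05 over the 14063 genes tested.

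The 75th percentile signal ran from 1586 to 3087 among the arrays, 65% to 75.9% of spots were well above background, and precision is limited by having 9 arrays. All 6 activity-induced genes chosen as a check rose under both treatments, among them Fos by 2.76 under bicuculline and 4.47 under KCl. Across all genes tested, 44.4% were called under bicuculline and 71.8% under KCl. All 11 neuron markers were measured, with summed signals of 13451 to 13865% in control, 16424 to 16670% with bicuculline and 16395 to 16962% with KCl. Among them Nefl rose by 1.52 under bicuculline and 1.42 under KCl. Nefl was at 1571 to 1688% in control, 4587 to 4698% with bicuculline and 4233 to 4393% with KCl. Such sums are weighted to bright probes, and Nefl weighs heavily on this one. By count 2 of the 11 rose and 4 fell under bicuculline, and 7 rose and 2 fell under KCl. The summed markers of endothelial, mural and fibroblast cells (8 of 12 measured) were 2629 to 2750% in control, 2585 to 2824% with bicuculline and 4520 to 4984% with KCl. Under KCl 6 of these 8 rose, among them Tagln by 1.27, and Col1a1 fell (-0.52). Tagln weighs heavily on this sum, at 1149 to 1288% in control and 2722 to 3141% with KCl. The endothelial genes Pecam1, Cdh5, Cldn5 and Tek were not above background. Kdr, also an endothelial gene, was measured and rose under KCl (0.67 ± 0.08). It was at 34.8 to 36.7% in control and 50.9 to 64.2% with KCl. Astrocyte markers (10 of 10 measured) summed to 15297 to 16551%, 15338 to 15617% and 17361 to 18267% in the same order. Oligodendrocyte lineage markers (9 of 10, without Mog) summed to 3272 to 3398%, 3132 to 3258% and 3730 to 3791%. Microglia markers (7 of 10, without Itgam and P2ry12) summed to 346 to 365%, 283 to 428% and 417 to 613%. Progenitor and cycling-cell markers (9 of 10, without Eomes) summed to 2467 to 2606%, 2077 to 2166% and 2250 to 2358%. The part of other cell types in the changes below was not tested, and in bulk RNA fewer cells of a type and less RNA per cell cannot be told apart.

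The promoters of 4 genes are shown, chosen after their values were seen: Epha2, Epha3 and Sema3e, which rose, and Epha8, which fell. Each of them changed by about 1 log2 unit or more under a treatment. So did genes that are not shown, among them Efna2, Epha6 and Epha10. Each run is the 250 bases before the RefSeq gene start in build GRCm38.p6, 5′ to 3′ on the gene's strand, from chr4:141300971-141301220 (plus strand) for Epha2, chr16:63864176-63864425 (minus) for Epha3, chr5:14025026-14025275 (plus) for Sema3e and chr4:136956817-136957066 (minus) for Epha8. Capitals mark the cyclic AMP response element (CRE) in Epha2 and the EGR motif in Epha8.
Epha2: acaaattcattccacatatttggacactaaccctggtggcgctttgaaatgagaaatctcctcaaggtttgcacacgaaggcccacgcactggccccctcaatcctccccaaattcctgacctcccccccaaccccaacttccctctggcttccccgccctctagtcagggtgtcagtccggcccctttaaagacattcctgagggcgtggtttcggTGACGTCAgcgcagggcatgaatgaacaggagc
Epha3: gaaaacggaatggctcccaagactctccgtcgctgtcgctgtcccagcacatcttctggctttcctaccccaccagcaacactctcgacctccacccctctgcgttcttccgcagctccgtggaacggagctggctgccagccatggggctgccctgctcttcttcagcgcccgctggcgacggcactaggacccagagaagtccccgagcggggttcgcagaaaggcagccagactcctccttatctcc
Sema3e: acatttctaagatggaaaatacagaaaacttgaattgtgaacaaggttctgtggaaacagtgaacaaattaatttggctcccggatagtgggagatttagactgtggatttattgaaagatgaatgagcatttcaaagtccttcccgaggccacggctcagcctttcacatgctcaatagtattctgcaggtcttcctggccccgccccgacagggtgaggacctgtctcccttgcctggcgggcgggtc
Epha8: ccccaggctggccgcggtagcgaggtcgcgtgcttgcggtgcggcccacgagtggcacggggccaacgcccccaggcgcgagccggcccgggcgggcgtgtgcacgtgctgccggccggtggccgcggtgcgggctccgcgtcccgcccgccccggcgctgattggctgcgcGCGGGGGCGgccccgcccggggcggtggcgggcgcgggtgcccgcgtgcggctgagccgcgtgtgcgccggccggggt

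The 4 motifs of activity-regulated factors were searched on both strands of the 250-base window. RefSeq promoters matched 54 of the 62 genes, in 69 windows. The full CRE, TGACGTCA, which reads the same on both strands, was in 1.55% of all 32851 promoter windows and in 1 guidance gene, Epha2, at bases -33 to -26. Its half-site TGACG, which overlaps it, was in 17.8% of windows and in 6 guidance genes: Efnb1, Efnb2, Epha2, Epha4, Ephb3 and Sema3d. The AP-1 motif TGANTCA was in 6.75% of windows and in Sema4c, Sema4d and Sema6b. The EGR motif GCGNGGGCG was in 4.7% of windows and in 11 of the 69 guidance windows, of 11 genes. These were Efna1, Efna5, Epha1, Epha8, Plxna2, Plxnb2, Plxnc1, Sema4g, Sema5a, Slit2 and Slit3. Epha1 was not tested, and Efna1 was not called in any comparison. The difference between these shares of windows was not tested. None of the 4 motifs was found in the windows of Epha3 and Sema3e. These matches describe letters and do not show that a factor binds.

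Under bicuculline, 14 of the 58 guidance genes rose and 19 fell, together 56.9%, beside 44.4% of all genes tested (17.4% higher, 27% lower). Under KCl, 23 rose and 18 fell, 70.7% of the 58, beside 71.8% of all genes (35.8% higher, 36% lower). Against bicuculline, KCl arrays were higher for 24 guidance genes and lower for 10, 58.6%, beside 64.9% of all genes (36.1% higher, 28.8% lower). The median log2 change of the guidance genes was -0.05 under bicuculline and 0.13 under KCl, and that of all genes -0.03 and 0.02. The groups did not overlap for 41 of the 58 genes in each comparison, beside 56.9%, 74.8% and 70% of all genes. How arrays are scaled changed the KCl counts. Median centring moved the median of all genes under KCl to -0.14 and spike-in scaling to -0.2. The share of guidance calls that were rises went from 56.1% to 38.9% and 30.3%, and that of all genes called from 49.9% to 31.8% and 25.9%. In KCl against bicuculline the guidance share went from 70.6% to 53.6% and 23.8%, beside 55.6% to 33.9% and 19.7%. With normexp background correction it went from 42.4% to 57.1% under bicuculline, beside 39.2% to 58.9%. With spike-in scaling 15 of the 34 calls between KCl and bicuculline passed in the same direction, and among those that did not were Sema3e (0.11), Sema4a (0.14), Slit2 (0.08), Robo3 (0.37), Plxnd1 (0.08) and Epha6 (0.54).

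**Figure D1:**
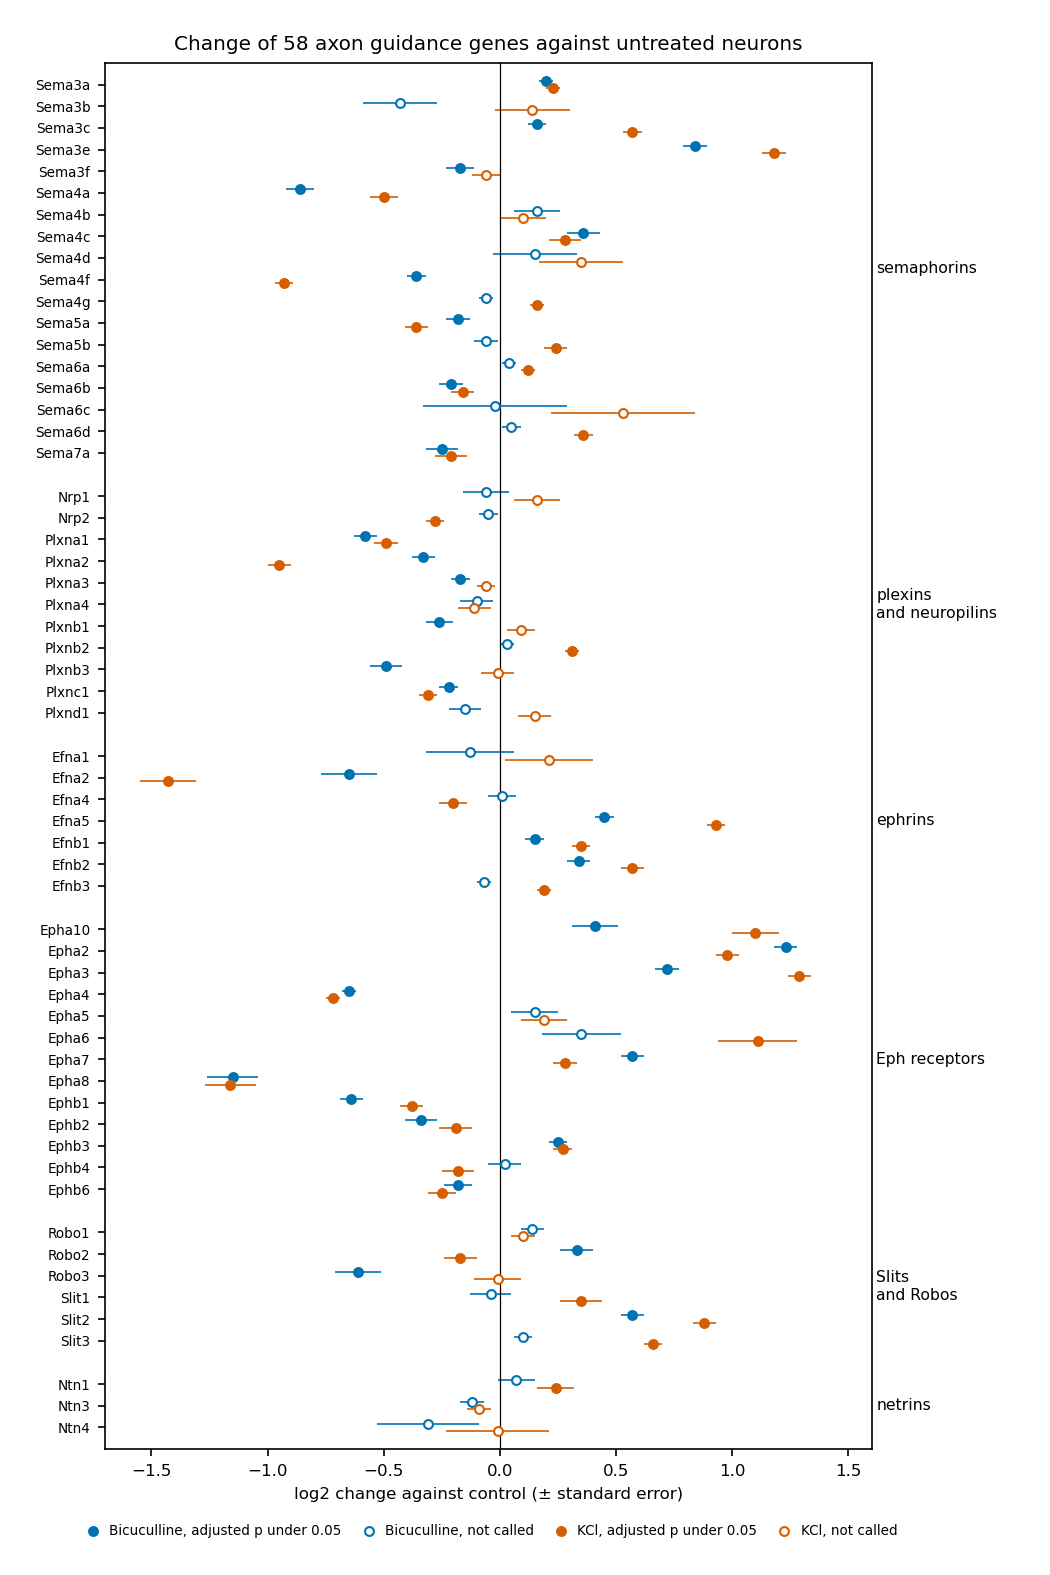
Log2 change against control (x axis, with standard error) of the 58 guidance genes tested (y axis, by family), under bicuculline (blue) and KCl (orange), with filled points for adjusted p under 0.05. Epha2, Epha3 and Sema3e lie farthest right and Efna2 and Epha8 farthest left, and no plexin or neuropilin has a filled bicuculline point to the right of 0.

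**Figure D2:**
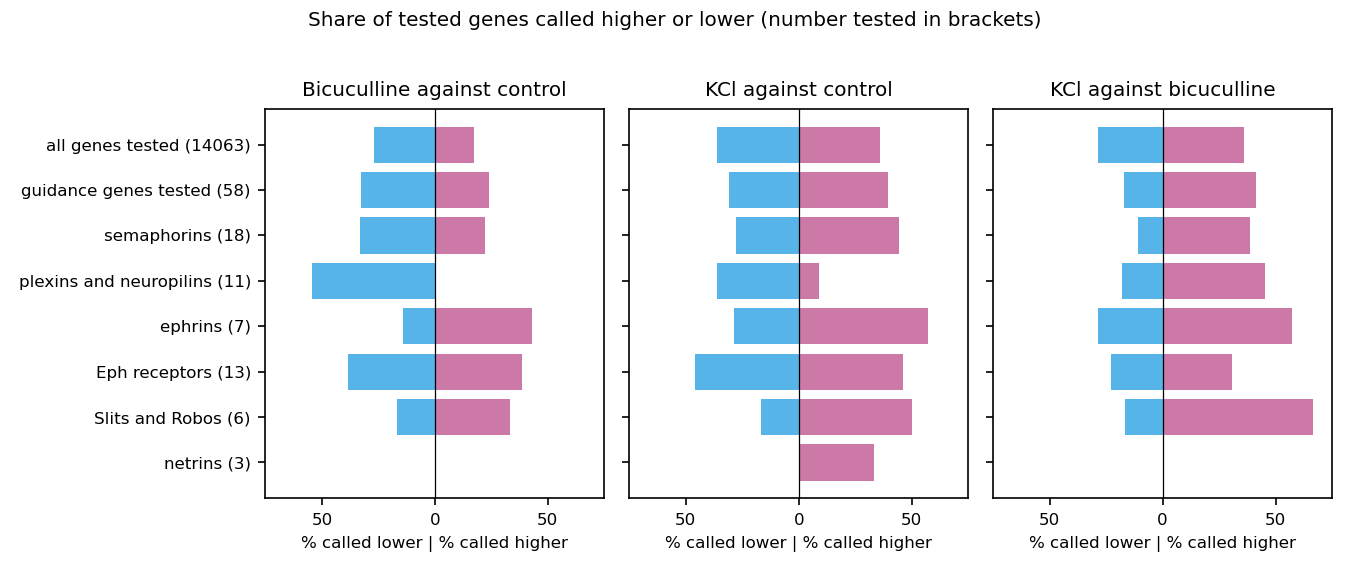
Percentage of genes tested that were called higher (pink, to the right) or lower (blue, to the left) in each comparison, by family, with all 14063 genes tested on top. Among plexins and neuropilins, 0 of 11 were higher and 6 were lower under bicuculline, beside 17.4% and 27% of all genes.

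Of 31 ligands, 8 rose and 7 fell under bicuculline and 16 rose and 7 fell under KCl. Of 27 receptors, 6 rose and 12 fell under bicuculline and 7 rose and 11 fell under KCl. Together 48.4% of ligands and 66.7% of receptors were called under bicuculline, beside 44.4% of all genes (17.4% higher, 27% lower). Under KCl these shares were 74.2% and 66.7%, beside 71.8% (35.8% higher, 36% lower). With spike-in scaling 10 of the 58 guidance genes were higher and 23 lower under KCl. Ligands and receptors were not counted apart with that scaling. The difference between ligand and receptor counts was not tested.

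Of 18 semaphorins tested, 4 rose and 6 fell under bicuculline, and 8 rose and 5 fell under KCl. Their median change was -0.04 and 0.15, and the KCl median turned to -0.01 with median centring and -0.08 with spike-in scaling. Sema3e, a secreted ligand that binds plexin D1 directly, was at 42.4, 43.2 and 42.6% on the control arrays, 75.5, 76.3 and 78.6% with bicuculline and 104, 93.9 and 92.5% with KCl. The 3 groups did not overlap, with control lowest and KCl highest. Sema3e rose 1.8-fold under bicuculline (log2 0.84 ± 0.05, adjusted p = 5.9e-06) and 2.26-fold under KCl (1.18 ± 0.05, 2.9e-07), and was higher with KCl than with bicuculline (0.33 ± 0.05, 0.00048). A second Sema3e probe, above background on all arrays, rose by 0.54 and 0.72. The third was above background on 1 of 3 control arrays and passed the filter through the treated groups, so it gives no support.

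Sema4a, a transmembrane semaphorin, stood at 375, 349 and 348% in control, 202, 189 and 200% with bicuculline and 271, 251 and 238% with KCl. Every treated array lay below every control array, and bicuculline was lowest. It fell 1.81-fold under bicuculline (-0.86 ± 0.06, 1.2e-05) and 1.41-fold under KCl (-0.50 ± 0.06, 8.5e-05). Sema4f, also a transmembrane semaphorin, measured 115, 117 and 119% in control, 86.9, 90.7 and 95.1% with bicuculline and 62.2, 60.4 and 61.6% with KCl. Here KCl was lowest and no groups overlapped. Sema4f fell 1.28-fold under bicuculline (-0.36 ± 0.04, 0.00016) and 1.9-fold under KCl (-0.93 ± 0.04, 3.1e-07).

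The other class 3 semaphorins, secreted ligands of neuropilin and plexin complexes, changed less on their brightest probes. Sema3c was at 9.77, 10.7 and 10.3% in control, 11.2, 11.5 and 11.6% with bicuculline and 15.6, 14.7 and 15.3% with KCl. It rose 1.12-fold under bicuculline (0.16 ± 0.04, 0.014) and 1.48-fold under KCl (0.57 ± 0.04, 6.7e-06). The groups did not overlap, with control lowest and KCl highest. Sema3a, a repellent of cortical axons, rose by 0.20 ± 0.03 (0.0013) and 0.23 ± 0.03 (0.00028) on its brightest probe and by 0.81 and 1.13 on a dimmer one. Sema3b was called in KCl against bicuculline, where it was higher (0.57 ± 0.16, 0.015), and without bicuculline replicate 1 that p was 0.051. Its control arrays spread from 12.5 to 19.2% and overlapped those with KCl. Sema3f fell under bicuculline by 0.17 ± 0.06 (0.046) on its brightest probe. That p was 0.085 to 0.14 when control 2, control 3 or bicuculline 1 or 2 was left out. Its other probe fell by 0.41 ± 0.05 (6e-04) under bicuculline and 0.32 ± 0.05 (0.00088) under KCl.

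Among the remaining semaphorins, the transmembrane Sema4c rose under both treatments (0.36 ± 0.07 and 0.28 ± 0.07). Sema6d rose under KCl (0.36 ± 0.04, 3.9e-05), as did Sema5b (0.24 ± 0.05), Sema4g (0.16 ± 0.03) and Sema6a (0.12 ± 0.03). With spike-in scaling none of these 5 KCl rises passed: the changes were 0.06 for Sema4c, 0.13 for Sema6d, 0.01 for Sema5b, -0.07 for Sema4g and -0.11 for Sema6a. With median centring Sema6d alone of the 5 passed. Sema5a fell by 0.18 ± 0.05 under bicuculline and 0.36 ± 0.05 under KCl. Sema6b fell by 0.21 and 0.16, and the lipid-anchored Sema7a by 0.25 and 0.21. Sema4b, Sema4d and Sema6c were not called in any comparison.

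On their brightest probes, 6 of 9 plexins, the semaphorin receptors, fell and 0 rose under bicuculline with limma, also at an unadjusted p under 0.05. Of all genes 27% were lower and 17.4% higher. Neither neuropilin was called. With normexp correction 1 of the 11 plexins and neuropilins was lower, and with spike-in scaling 3 were. Of all genes 5.85% and 17.8% were then called in either direction. With the mean of probes 1 of the 11 genes was higher and 5 were lower, and dimmer probes of Plxna2 and Plxna4 were called higher. The median of the 11 genes was -0.17 under bicuculline, beside -0.03 for all genes, and ran from -0.2 to -0.14 over the scalings and the mean of probes. Under KCl 1 of the 11 rose and 4 fell, with a median of -0.06, which the mean of probes turned to 0.03 with 4 higher and 3 lower. With spike-in scaling 0 were higher and 7 lower under KCl. Plxna2, a receptor for class 6 semaphorins, was at 855, 910 and 810% in control, 703, 693 and 650% with bicuculline and 436, 434 and 458% with KCl. The groups stepped down in that order without overlap. Plxna2 fell 1.26-fold under bicuculline (-0.33 ± 0.05, 0.0013) and 1.94-fold under KCl (-0.95 ± 0.05, 1.3e-06). A dimmer probe of the same RefSeq transcript fell as well (-0.29 and -0.73), but another rose (0.43 and 0.56), and the mean of the 3 probes under bicuculline was -0.07 (adjusted p = 0.19).

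Plxna1, which pairs with neuropilins to receive class 3 semaphorins, measured 461, 478 and 439% in control, 323, 309 and 287% with bicuculline and 333, 324 and 326% with KCl. Both treatments lay below control. It fell 1.5-fold under bicuculline (-0.58 ± 0.05, 5.6e-05) and 1.4-fold under KCl (-0.49 ± 0.05, 5.2e-05). Its dimmer probe was not called under bicuculline (0.06 ± 0.16, 0.81) and rose under KCl (0.87 ± 0.16, 0.0017). The mean of both probes turned the KCl change to 0.19 (0.044).

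Plxnb3, a receptor of Sema5a, was at 11.2, 12.6 and 11.7% in control, 7.68, 9.27 and 8.29% with bicuculline and 11.6, 12 and 11.4% with KCl. The bicuculline arrays alone stood lower, while control and KCl overlapped. It fell under bicuculline (-0.49 ± 0.07, 0.00094) and was higher with KCl than with bicuculline (0.48 ± 0.07, 0.00063). Plxnb2, a receptor of class 4 semaphorins, was at 602, 614 and 600% in control, 620, 603 and 635% with bicuculline and 780, 736 and 742% with KCl, and rose under KCl (0.31 ± 0.03, 7.1e-05). With spike-in scaling that rise was 0.09 (0.43). Plxna3 fell under bicuculline by 0.17 ± 0.04 and Plxnb1 by 0.26 ± 0.06, and Plxnc1 fell by 0.22 ± 0.04 under bicuculline and 0.31 ± 0.04 under KCl. Plxnd1, the receptor of Sema3e, changed by -0.15 ± 0.07 (0.098) and 0.15 ± 0.07 (0.07), which did not pass, and was higher with KCl than with bicuculline (0.30 ± 0.07, 0.0044).

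Nrp2, a co-receptor of Sema3f, fell under KCl by 0.28 ± 0.04 (0.00061), with control at 268 to 283% and KCl at 217 to 238%. Nrp1, the co-receptor of Sema3a, was not called on its brightest probe (0.16 ± 0.10 under KCl, 0.16). Its dimmer probe rose under KCl by 0.91 ± 0.05 (2.4e-06). On that probe control was at 15.4, 16.3 and 14.6% and KCl at 27.6, 29.9 and 29.5%.

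Of 7 ephrins, 3 rose and 1 fell under bicuculline, and 4 rose and 2 fell under KCl. The KCl median of 0.21 turned to -0.01 with spike-in scaling. Efna5, an ephrin that guides topographic maps, was at 234, 248 and 237% in control, 326, 323 and 335% with bicuculline and 472, 434 and 467% with KCl. The 3 groups rose in that order without overlap. Efna5 rose 1.37-fold under bicuculline (0.45 ± 0.04, 7.5e-05) and 1.91-fold under KCl (0.93 ± 0.04, 4.6e-07). The 3 ephrin-B genes, transmembrane ligands that can also signal into their own cell, all rose under KCl, by 0.35 ± 0.04 for Efnb1, 0.57 ± 0.05 for Efnb2 and 0.19 ± 0.03 for Efnb3. With spike-in scaling Efnb1 was at 0.12 (0.35) and Efnb3 at -0.03 (0.76), which did not pass, and Efnb3 did not pass with median centring either (0.03, 0.65).

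Efnb2 stood at 397, 390 and 400% in control, 513, 487 and 507% with bicuculline and 624, 539 and 606% with KCl, and the bicuculline rise was 0.34 ± 0.05 (0.0015). The mean of its 2 probes gave 0.06 (0.78) under bicuculline and 0.35 (0.062) under KCl. Efna2, a GPI-anchored ligand of EphA receptors, went the other way, with 15, 15.3 and 13.7% in control, 10.3, 9.17 and 8.64% with bicuculline and 5.31, 6.43 and 4.68% with KCl. It was highest in control and lowest with KCl, without overlap. Efna2 fell 1.57-fold under bicuculline (-0.65 ± 0.12, 0.0029) and 2.7-fold under KCl (-1.43 ± 0.12, 1.3e-05). With normexp correction these changes were -0.53 (0.88) and -0.11 (0.89).

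Of 13 Eph receptors tested, 5 rose and 5 fell under bicuculline, and 6 rose and 6 fell under KCl. Among 8 EphA receptors, 4 rose and 2 fell under bicuculline and 5 rose and 2 fell under KCl. Among 5 EphB receptors, 1 rose and 3 fell, then 1 rose and 4 fell. A log2 rise of at least 1 was reached under KCl by Epha3, Epha6 and Epha10, beside 5.85% of all genes, and under bicuculline by Epha2, beside 1.74%. A fall of that size was reached by Epha8 under both treatments, beside 0.555% of all genes under bicuculline and 2.83% under KCl.

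Epha3 stood at 25.2, 26.7 and 26.7% in control, 41.5, 45.5 and 42.6% with bicuculline and 67.9, 63.1 and 61.2% with KCl. Its groups were fully separate, control below bicuculline below KCl. It rose 1.65-fold under bicuculline (0.72 ± 0.05, 2.2e-05) and 2.44-fold under KCl (1.29 ± 0.05, 3e-07), and its other probe rose by 0.84 and 1.64. Epha2 was dim, at 2.08, 2.21 and 2.27% in control, 4.75, 5.38 and 5.28% with bicuculline and 4.37, 4.23 and 4.34% with KCl. All 9 of its spots were well above background, and here bicuculline was above KCl. Epha2 rose 2.35-fold under bicuculline (1.23 ± 0.05, 1.7e-06) and 1.98-fold under KCl (0.98 ± 0.05, 1.5e-06), and was lower with KCl than with bicuculline (-0.25 ± 0.05, 0.0045). With normexp correction the rises were 0.62 (0.84) and 1.44 (0.12). Its promoter is the guidance promoter printed above with the CRE in capitals.

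Epha8 was at 5.7, 4.93 and 5.68% in control, 2.3, 2.39 and 2.68% with bicuculline and 2.34, 2.82 and 2.17% with KCl. Both treatments were below control and overlapped each other. It fell 2.21-fold under bicuculline (-1.15 ± 0.11, 9.3e-05) and 2.23-fold under KCl (-1.16 ± 0.11, 2.9e-05). With normexp correction the KCl change was 0.53 (0.57) and the bicuculline change -0.59 (0.9). Epha4, an Eph receptor that binds ephrins of both classes, measured 1444, 1509 and 1408% in control, 915, 943 and 928% with bicuculline and 896, 872 and 882% with KCl, a fall of 1.56-fold (-0.65 ± 0.03, 4.2e-06) and 1.64-fold (-0.72 ± 0.03, 5.9e-07). A dimmer probe of the same RefSeq transcript did not change under bicuculline past the threshold (0.02 ± 0.07, 0.87) and rose under KCl (0.69 ± 0.07, 4.4e-05), with control at 193, 195 and 182% and KCl at 292, 333 and 294%. The mean of both probes under KCl was -0.02 (0.75).

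Epha10, which lacks an active kinase, was at 16.7, 13 and 14.8% in control, 19.8, 19.8 and 19.2% with bicuculline and 32.9, 34.1 and 28.3% with KCl. It rose in steps, 1.33-fold (0.41 ± 0.10, 0.011) and 2.15-fold (1.10 ± 0.10, 2.4e-05). Epha6 was at 5.9, 4.68 and 4.75% in control, 8.4, 5.61 and 5.78% with bicuculline and 10.1, 10.9 and 12.1% with KCl. KCl arrays were above all others, and control and bicuculline overlapped. It rose 2.16-fold under KCl (1.11 ± 0.17, 0.00044) and changed by 0.35 ± 0.17 (0.12) under bicuculline.

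Epha7 rose by 0.57 ± 0.05 under bicuculline and 0.28 ± 0.05 (0.0018) under KCl, with 91.8, 93.5 and 88.4% in control, 143, 127 and 136% with bicuculline and 117, 107 and 108% with KCl. A probe of another RefSeq transcript of Epha7 fell under KCl by 0.35 ± 0.04 (0.00013), and the KCl rise was 0.05 (0.69) with spike-in scaling. Ephb1, a receptor of ephrin-B ligands, was at 33.1, 32.2 and 34.3% in control, 20.6, 21.9 and 21.4% with bicuculline and 23.8, 26.1 and 26.6% with KCl. It fell 1.56-fold (-0.64 ± 0.05, 3.3e-05) and 1.3-fold (-0.38 ± 0.05, 0.00021), although with normexp correction the KCl change was 0.05 (0.89).

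Of the other EphB receptors, Ephb3 rose (0.25 ± 0.04 and 0.27 ± 0.04). Ephb2 fell by 0.34 ± 0.07 under bicuculline and 0.19 ± 0.07 under KCl, Ephb6, which lacks kinase activity, by 0.18 and 0.25, and Ephb4 by 0.18 under KCl (0.049), which normexp correction turned to 0.69 (0.33). Epha5 was not called on its brightest probe (0.19 ± 0.10 under KCl, 0.12), and its dimmer probe rose by 0.47 ± 0.07 (0.0016) and 0.90 ± 0.07 (1.8e-05).

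**Figure D3:**
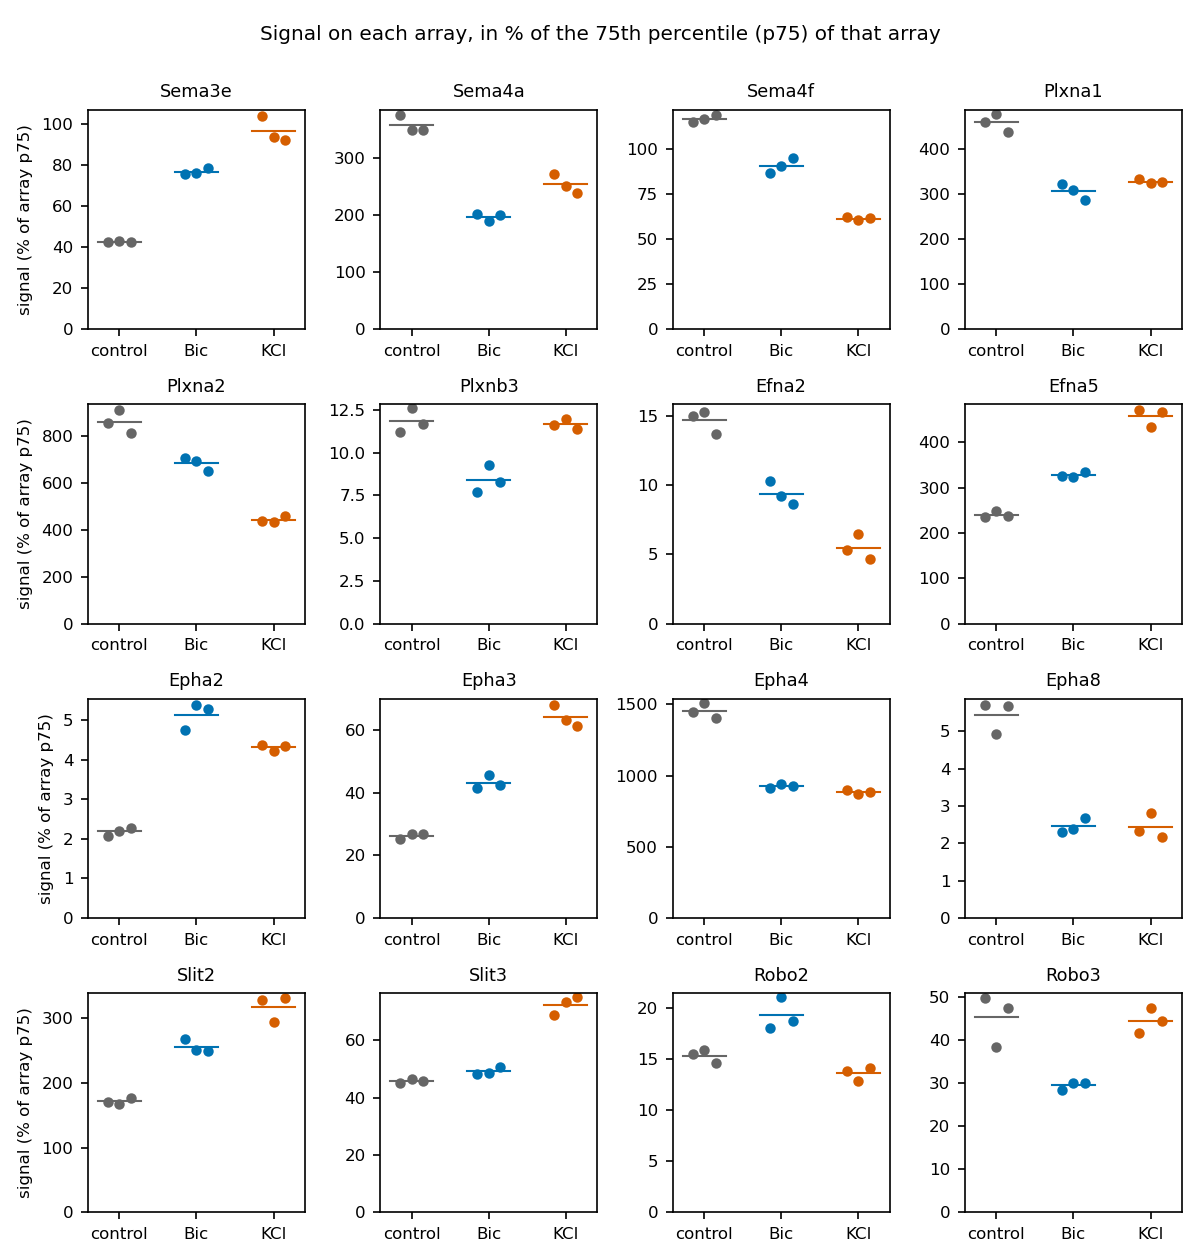
Signal on each array, in percent of that array's 75th percentile (y axis, from 0), for 16 guidance genes in control, bicuculline (Bic) and KCl cultures; points are arrays and lines group means. Sema3e, Efna5, Epha3 and Slit2 step upward from control to KCl, Sema4f, Plxna2 and Efna2 step downward, and Plxnb3 and Robo3 are low with bicuculline alone.

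All 3 Slits rose under KCl and 1 of them, Slit2, rose under bicuculline. Slit2 was at 171, 168 and 177% in control, 268, 251 and 249% with bicuculline and 328, 294 and 331% with KCl, without overlap. It rose 1.49-fold under bicuculline (0.57 ± 0.05, 9.6e-05) and 1.84-fold under KCl (0.88 ± 0.05, 2.7e-06), and its other probe rose by 0.71 and 0.92. Slit3 stood at 45.1, 46.4 and 46% in control, 48.3, 48.6 and 50.8% with bicuculline and 68.8, 73.5 and 75% with KCl. The KCl arrays alone were clearly apart, a rise of 1.58-fold (0.66 ± 0.04, 2.5e-06), while the bicuculline change of 0.10 ± 0.04 (0.072) did not pass. Slit1 rose under KCl by 0.35 ± 0.09 (0.0082), which was 0.12 (0.34) with spike-in scaling.

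Of the 3 Robo receptors tested, 1 rose and 1 fell under bicuculline, and 1 fell under KCl. Robo3, which in commissural axons counters the response to Slits, was at 49.8, 38.4 and 47.4% in control, 28.5, 30 and 29.9% with bicuculline and 41.6, 47.5 and 44.4% with KCl. Bicuculline arrays lay below all others, and control and KCl overlapped. Robo3 fell 1.52-fold under bicuculline (-0.61 ± 0.10, 0.0014) and was higher with KCl than with bicuculline (0.59 ± 0.10, 0.00093), and its second probe changed by -0.62 and 0.59. Robo2 was at 15.5, 15.9 and 14.7% in control, 18.1, 21.1 and 18.8% with bicuculline and 13.9, 12.9 and 14.2% with KCl. It rose under bicuculline (0.33 ± 0.07, 0.0047) and was lower with KCl than with bicuculline (-0.50 ± 0.07, 0.00031).

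The Robo2 fall under KCl (-0.17 ± 0.07, 0.045) turned to 0.44 (0.44) with normexp correction, had a p of 0.073 to 0.14 when control 1, control 2, KCl 1 or KCl 2 was left out, and the other Robo2 probe rose under KCl (0.52 ± 0.08, 0.00085). Robo1, which neighbours Robo2 in the genome, changed by 0.14 ± 0.05 (0.061) and 0.10 ± 0.05 (0.12) and was not called.

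Of the 3 netrins tested, 0 were called under bicuculline with limma, also at an unadjusted p under 0.05, and 1 was called under KCl. Ntn1, a secreted attractant, was at 4.48, 3.7 and 4.4% in control, 4.2, 4.34 and 4.62% with bicuculline and 4.68, 4.91 and 5.25% with KCl. Its KCl rise of 0.24 ± 0.08 (0.027) had a p of 0.058 to 0.087 without control 2, KCl 2 or KCl 3, and the change was -0.03 with quantile normalization. Ntn3 and Ntn4 were not called in any comparison. Of 11 netrin, draxin and RGM partners tested, 5 rose and 3 fell under bicuculline and 5 rose and 6 fell under KCl. Of all genes, 17.4% were higher and 27% lower under bicuculline, and 35.8% and 36% under KCl. The netrin receptors Unc5c (0.82 ± 0.03 and 0.69 ± 0.03) and Unc5d (0.71 ± 0.06 and 1.39 ± 0.06) rose under both treatments, and Unc5a fell under both (-0.70 ± 0.03 and -0.36 ± 0.03). Ntng2, a membrane-anchored netrin G, rose by 1.46 ± 0.18 under KCl.

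Of 24 adhesion molecules and co-receptors, 5 rose and 3 fell under bicuculline, and 12 rose and 2 fell under KCl. Omg, a myelin and neuronal ligand of the Nogo receptor, rose by 1.41 ± 0.03 and 1.99 ± 0.03, while the Nogo receptor gene Rtn4r fell (-1.15 ± 0.07 and -1.47 ± 0.07). Its relative Rtn4rl1 fell by 0.71 ± 0.05 and 0.81 ± 0.05, and Flrt3, a Robo1 co-receptor, rose by 0.66 ± 0.05 and 0.83 ± 0.05. Of 60 cytoplasmic effectors, 10 rose and 23 fell under bicuculline and 26 rose and 22 fell under KCl. Enah, an actin regulator downstream of Robo and netrin receptors, rose by 1.15 ± 0.05 and 1.75 ± 0.05. The plexin effector Rnd1 fell under both treatments (-1.23 ± 0.08 and -1.05 ± 0.08), as did Mical2, of a family of plexin effectors (-1.03 ± 0.16 and -1.20 ± 0.16). Mical2 was dim, at 5.52 to 5.93% in control, 2.34 to 3.22% with bicuculline and 2.18 to 3.15% with KCl. Vav3, an exchange factor, rose under KCl (1.13 ± 0.14).

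Several guidance genes gave different answers from different probes. Of the 88 guidance probes kept, each tested on its own, 24 were higher and 22 lower under bicuculline, beside 17.4% and 22.5% of all 27781 probes. Under KCl 42 were higher and 19 lower, beside 36.3% and 32.9%, and between KCl and bicuculline 44 and 12, beside 34.6% and 26%. The probes higher under KCl include dim ones of Sema3e, Efna5 and Sema6d that passed the filter only through treated groups. Those probes give no support. Of 26 genes with more than 1 probe kept, all probes were called the same way for 7 under bicuculline and 9 under KCl. These include Sema3e under both treatments and Efna5 and Sema6d under KCl, in part through those dim probes. Probes of a gene were called in opposite directions for Plxna2 under bicuculline, for Plxna1, Plxna2, Epha4 and Epha7 under KCl, and for Plxna2 and Robo2 between KCl and bicuculline. Plxna4 was not called on its brightest probe (-0.10 ± 0.07 and -0.11 ± 0.07). A dimmer Plxna4 probe of the same RefSeq transcript was at 62.4, 65.3 and 62.8% in control, 111, 109 and 116% with bicuculline and 214, 223 and 232% with KCl. It rose by 0.82 ± 0.04 (7.1e-06) and 1.81 ± 0.04 (4.1e-08), and a further probe rose by 0.37 ± 0.04 and 1.15 ± 0.04.

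Under KCl the mean change of the dimmer probes was above that of the brightest in 19 of the 26 guidance genes (73.1%), beside 54.3% of the 5299 genes with several probes. With quantile normalization these shares were 57.7% and 51.9%. Over all probes, the median KCl change was 0.21 in the dimmest tertile, -0.04 in the middle tertile and 0.03 in the brightest. The part of brightness in the KCl probe differences was not tested.

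**Figure D4:**
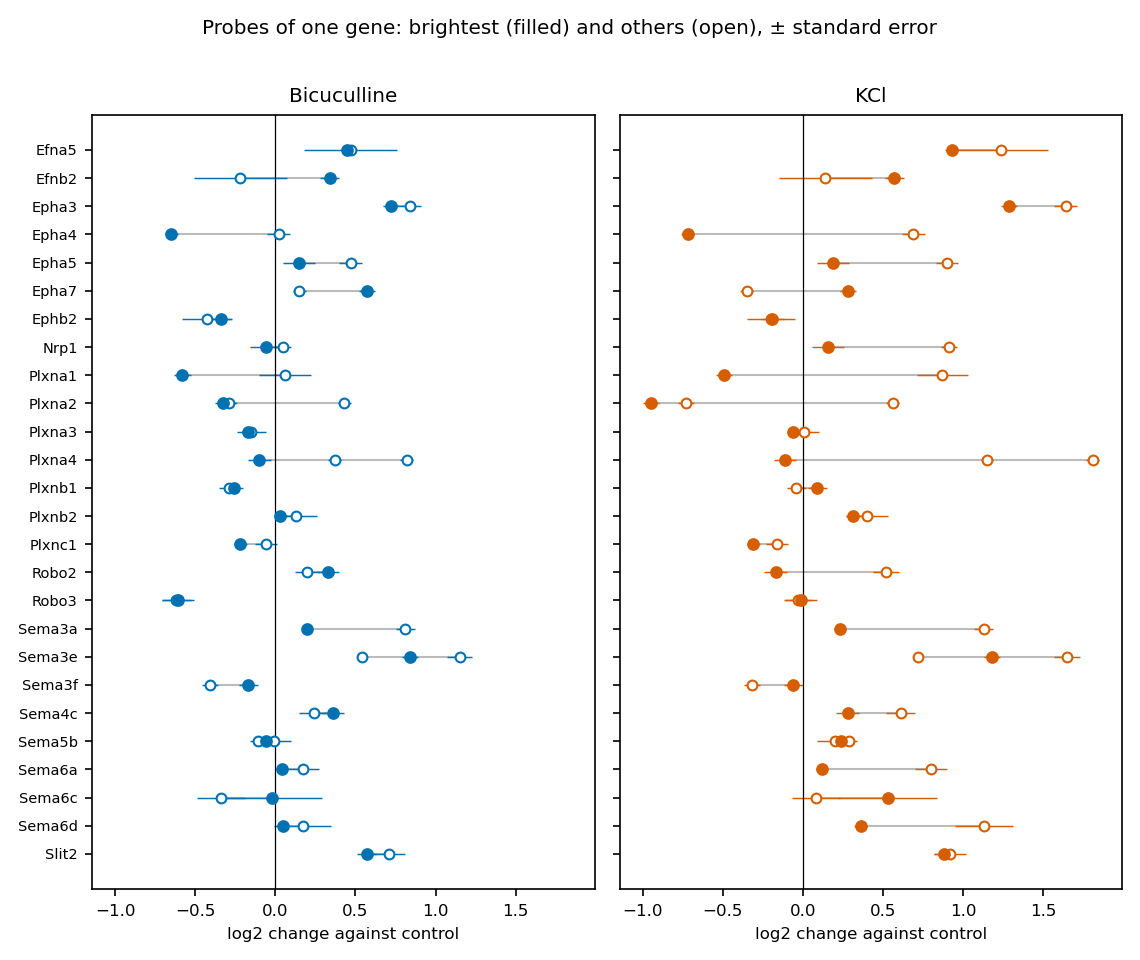
Log2 change against control (x axis, with standard error) of each kept probe of 26 guidance genes under bicuculline (left) and KCl (right), filled for the brightest probe and open for the others. Under KCl the probes of Epha4, Epha7, Plxna1, Plxna2 and Robo2 lie on both sides of 0, and those of Epha3, Slit2 and Sema3e on the right.

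By the file headers, slide 1 held control and bicuculline arrays, slide 2 arrays of all 3 groups and slide 3 a single KCl array. Within slides 1 and 2, all 33 guidance genes called under bicuculline kept their direction. Within slide 2 so did all 41 called under KCl and all 34 called between KCl and bicuculline. The same arrays made the calls, so the shared direction was largely fixed beforehand and gives no separate support. With slide as a block, all 33 bicuculline calls, 32 of the 41 KCl calls and 29 of the 34 KCl against bicuculline calls passed. The 9 KCl calls that did not were those of Ntn1, Sema4c and Sema6a (higher) and Efna4, Ephb2, Ephb4, Robo2, Sema6b and Sema7a (lower), which left 6 higher and 4 lower Eph receptors and 6 higher and 3 lower semaphorins. Calls that passed in all 18 alternatives run on the gene-level fit were, under bicuculline, those of Epha3, Epha7, Sema3e and Slit2 (higher) and Epha4, Plxna1 and Sema4a (lower). Under KCl they were those of Efna5, Epha3, Epha10, Sema3e, Slit2 and Slit3 (higher) and Nrp2, Plxna2, Sema4a, Sema4f and Sema5a (lower). Between KCl and bicuculline they were those of Epha3, Epha10 and Slit3 (higher) and Epha7, Plxna2 and Sema4f (lower). These alternatives read the brightest probe or the mean of the kept probes. The dimmer probes of Epha4 and Plxna1 were not called under bicuculline. A dimmer Plxna2 probe was called higher under KCl (0.56 ± 0.04) and between KCl and bicuculline (0.14 ± 0.04), against the brightest probe.

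Some small changes lost their call when a single array was left out. Under bicuculline these were Efnb1 (adjusted p of 0.051 to 0.053 without control 2, bicuculline 1 or bicuculline 3), Ephb6 (0.054 to 0.11 without any of the 6 arrays), Sema5a (0.052 without bicuculline 3) and Sema7a (0.051 without control 2), besides Sema3f. Under KCl they were Efna4 (0.059 to 0.06 without control 3, KCl 1 or KCl 3), Ephb2 (0.053 to 0.096 without any of the 6 arrays but control 2) and Ephb4 (0.06 to 0.14 without any but KCl 1). Sema6b (0.058 to 0.072 without control 2, KCl 2 or KCl 3) and Sema7a (0.06 without control 2 or KCl 3) joined them, besides Ntn1 and Robo2. Between KCl and bicuculline they were Efna4 (0.051 without KCl 1 or KCl 3), Ephb4 (0.094 to 0.11 without bicuculline 2, bicuculline 3 or KCl 2) and Plxna3 (0.073 to 0.089 without bicuculline 1 or 2 or KCl 1 or 2), besides Sema3b.

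**Figure D5:**
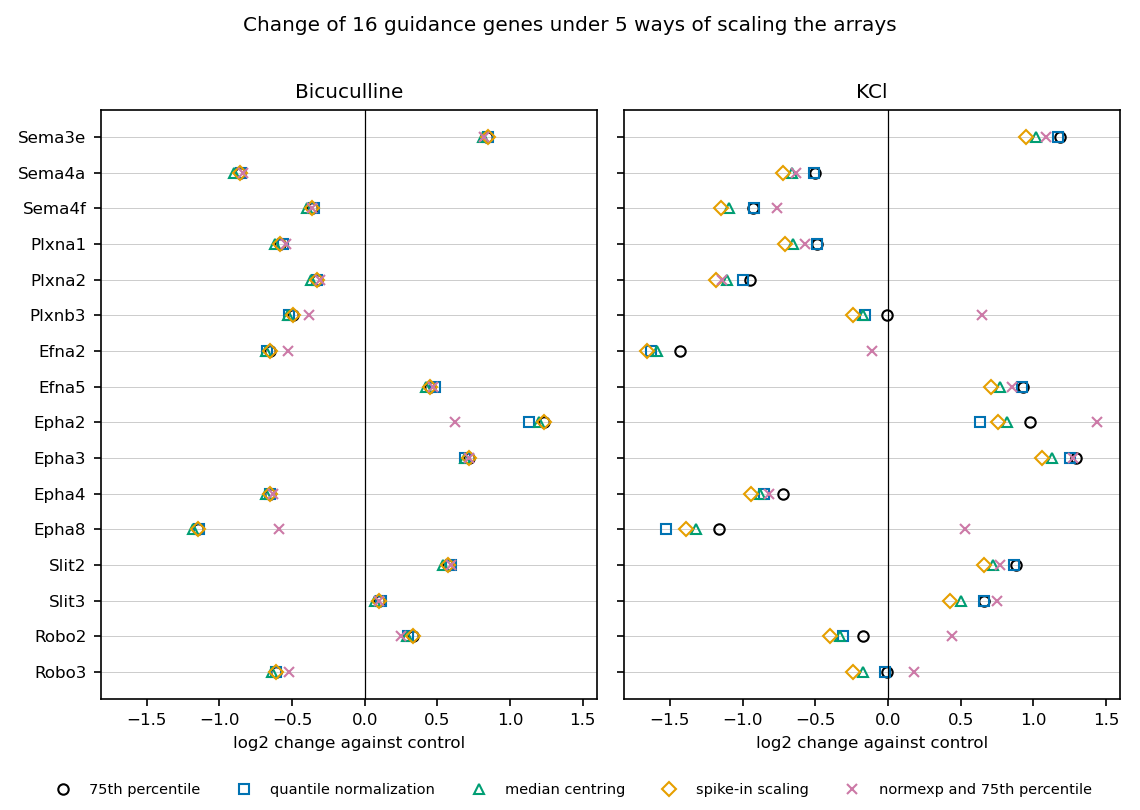
Log2 change against control (x axis) of 16 guidance genes under bicuculline (left) and KCl (right), with 5 ways of scaling the arrays as symbols. The symbols lie close together under bicuculline except for normexp on the dim Epha2 and Epha8. Under KCl median centring and spike-in scaling shift all 16 genes to the left, and normexp moves Epha8 from -1.16 to 0.53.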

How the data were processed

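The 9 arrays were 1-colour Agilent mouse arrays, grouped by the labels alone. The authors deposited scanner files with spot intensity from Agilent Feature Extraction. The file headers name its version 10.7.3.1 and the submitters' processing notes 10.5.1.1. The processed signal had its background subtracted, per the file headers, with no scaling between arrays.

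Here log2 of the processed signal was taken, and each array's 75th percentile over 43379 non-control spots was subtracted. Spots marked as outliers were left out, and spots of a probe were averaged. Kept probes were well above background on all arrays of 1 or more groups and measured on 2 or more arrays of each. RefSeq identifiers named 26888 probes, and the brightest kept probe stood for a gene. The fit used limma 3.58.1 in R 4.3.3 over all 9 arrays with group as the only term, two-sided, with Benjamini-Hochberg adjustment over 14063 genes, and was tested on simulated data. The median replicate SD was 0.064 (log2).

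Named in full were, per comparison against control and family, up to 3 called genes with the largest change, further called genes with a log2 change of at least 1, genes with opposite probe calls, up to 2 per family between KCl and bicuculline, and up to 3 of each pathway list; other genes were added after their values were seen. The members and lists were chosen with earlier results of these data known. Alternatives covered background correction, scaling, the filter on dim probes, the choice of probe, outliers, slide, replicate number, the arrays in the fit, the prior, and leaving out each array. Efna3 and Sema3g had no matched probe and are not analysed here.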

Additional observations from a re-analysis of the deposited data

How the results depend on the processing

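With normexp correction, 4 guidance genes were higher and 3 lower under bicuculline, 9 and 7 under KCl, and 6 and 3 between KCl and bicuculline, and 5.85%, 29.5% and 17.3% of all genes were called. Under normexp the KCl change of Epha8 turned to 0.53, of Robo2 to 0.44, of Efna4 to 0.52, of Ephb4 to 0.69 and of Ephb1 to 0.05. Between KCl and bicuculline Efna2 turned to 0.42, Epha2 to 0.82, Robo2 to 0.19, Efna4 to 0.5 and Ephb4 to 0.68. None of these passed. The cause was not tested. Median centring left 14 genes higher under KCl and 15 between KCl and bicuculline. Spike-in scaling left 9 higher and 11 lower under bicuculline, 10 higher under KCl, and 5 higher and 16 lower between KCl and bicuculline. Quantile normalization turned Ntn1 to -0.03 under KCl. With each of the 88 kept probes tested on its own, 24 were higher and 22 lower under bicuculline, 42 and 19 under KCl, and 44 and 12 between KCl and bicuculline. The KCl rises include the dim Sema3e, Efna5 and Sema6d probes that passed the filter only through treated groups. The mean of all kept probes turned the KCl change to -0.04 for Epha7, 0.19 for Plxna1 and 0.17 for Robo2, and Epha4 between KCl and bicuculline to 0.3, genes whose probes differ in sign. It also turned Sema6d to -0.69 (0.57) under KCl, where the dim probe has no value on 1 control array, so that array's mean is the bright probe alone.

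Leaving out each array in turn, the count was 13 to 15 higher and 17 to 19 lower under bicuculline, 22 to 25 higher and 13 to 15 lower under KCl, and 23 to 25 higher and 9 to 11 lower between KCl and bicuculline. With the replicate block, 14 were higher and 20 lower under bicuculline, 24 and 16 under KCl, and 23 and 10 between KCl and bicuculline. Whether the numbers pair the arrays was not settled. Deviations of same-numbered arrays correlated from -0.572 to 0.742. This range cannot decide it, since some of those pairs shared a slide and others did not. Between groups, arrays on the same slide correlated from 0.163 to 0.742 and arrays on different slides from -0.574 to 0.434. The replicate block ended 1 and brought 1 call among the named genes. Over the guidance genes called, more calls ended: with normexp 26 of 33 under bicuculline, and under KCl 21 of 41 with 5 more turned; with spike-in scaling 14, and 10 with 3 turned; with median centring 3, and 7 with 2 turned. For the genes named by rule, 1245 of the values recomputed kept their side of the threshold and direction, 78 no longer passed, 17 passed newly and 10 turned. Signals near background limit the dim genes, among them Epha2, Epha8 and Efna2.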
